A study of Mus musculus with 4 samples.

Results

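Arterial endothelial cells, which line the vessels that carry blood into the brain, were picked out of droplet single-cell RNA libraries of mouse brain by the genes they held. A cell was taken when it had 200 to 6000 detected genes and at most 10% of its unique molecular identifiers (UMIs, each marking 1 captured RNA molecule) from mitochondrial genes. It also had a UMI of at least 3 of the 5 endothelial genes Cldn5, Pecam1, Cdh5, Flt1 and Ptprb and of at least 3 of the 6 arterial genes Gkn3, Bmx, Sema3g, Vegfc, Cytl1 and Fbln5. At most 1 UMI in total of Mog, Kcnj8, Myh11 and C1qa (oligodendrocyte, pericyte, smooth muscle and microglia genes) was allowed. This gave 3491 arterial cells of 59429 deposited cells, with 849 in the sham library, 507 at day 1, 865 at day 3 and 1270 at day 7. They were compared with 18678 other endothelial cells, which passed the same endothelial and excluding conditions and held no UMI of the 6 arterial genes.

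The study followed brain tissue after transient middle cerebral artery occlusion (tMCAO), in which a filament blocks the artery and is then withdrawn so that blood returns. All mice were male C57/BL6 animals, 8 weeks old by the labels and with no transgene or drug named, and all received sevoflurane and the same neck surgery; the sham mice had no occlusion. The hemisphere on the operated side was taken on day 1, 3 or 7 of reperfusion (for sham on day 7, as the design text has it), after perfusion, papain digestion and a Percoll step that removed myelin. Each of the 4 groups was 1 library, and the number of mice behind a library is not given in the sources used here. No replicate error could therefore be estimated and no p-value was computed. Every interval below is a 95% interval for counting error only, and differences between days cannot be told apart from differences between libraries.

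Arteries, capillaries and veins of the brain share barrier genes but form distinct segments of 1 vessel tree. Arterial endothelium is marked by Notch signalling and ephrin ligands, faces the highest flow and pressure, and sits on elastic matrix beside smooth muscle. Endothelial cells also answer interferons: type I interferon induces antiviral genes such as Isg15 and the Ifit family through interferon-stimulated response elements, while interferon-gamma, made mainly by T and natural killer cells, acts through gamma-activated sites and induces guanylate-binding proteins, immunity-related GTPases and antigen presentation genes.

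The promoters of 5 interferon-responsive genes that the results below turn on are shown here, since these genes moved in 2 different ways in the arterial cells. Each is the 250 bases before the start of the gene in RefSeq's GRCm38.p6 annotation, 5′ to 3′ on the gene's strand, with capitals on matches to GAAANNGAAA (an interferon-stimulated response element, ISRE) or TTCNNNGAA (a gamma-activated site, GAS). Both strands were searched. Isg15 lies at chr4:156200819-156201068 on the minus strand, Ifit3 at chr19:34583279-34583528 on the plus strand, Igtp at chr11:58199306-58199555 on the plus strand, Gbp2 at chr3:142620413-142620662 on the plus strand and Gbp5 at chr3:142496684-142496933 on the plus strand.
Isg15: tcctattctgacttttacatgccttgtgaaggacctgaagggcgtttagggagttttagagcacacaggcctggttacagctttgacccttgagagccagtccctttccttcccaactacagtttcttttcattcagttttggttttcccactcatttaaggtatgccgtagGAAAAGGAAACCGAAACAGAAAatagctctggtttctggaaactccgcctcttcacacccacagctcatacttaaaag
Ifit3: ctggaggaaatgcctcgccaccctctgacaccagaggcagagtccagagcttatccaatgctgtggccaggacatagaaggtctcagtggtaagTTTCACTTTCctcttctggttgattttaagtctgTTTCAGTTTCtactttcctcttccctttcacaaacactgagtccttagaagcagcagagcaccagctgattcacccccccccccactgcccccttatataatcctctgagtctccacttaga
Igtp: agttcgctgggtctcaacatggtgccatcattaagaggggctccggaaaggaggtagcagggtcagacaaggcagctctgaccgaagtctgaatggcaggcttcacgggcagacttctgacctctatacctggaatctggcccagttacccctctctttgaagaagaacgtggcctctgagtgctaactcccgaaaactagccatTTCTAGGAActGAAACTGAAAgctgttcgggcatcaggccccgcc
Gbp2: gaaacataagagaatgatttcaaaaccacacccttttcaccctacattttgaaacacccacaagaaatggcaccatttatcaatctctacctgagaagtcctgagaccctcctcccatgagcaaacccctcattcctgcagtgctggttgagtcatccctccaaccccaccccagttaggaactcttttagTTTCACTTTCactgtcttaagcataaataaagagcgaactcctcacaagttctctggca
Gbp5: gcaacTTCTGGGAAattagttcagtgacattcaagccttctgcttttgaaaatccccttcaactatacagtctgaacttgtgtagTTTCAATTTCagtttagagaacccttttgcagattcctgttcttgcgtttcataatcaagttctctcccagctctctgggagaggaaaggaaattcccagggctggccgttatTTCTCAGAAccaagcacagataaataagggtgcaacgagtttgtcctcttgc
The Isg15 window held 3 overlapping ISRE matches and that of Ifit3 held 2. Igtp held 1 ISRE and 1 GAS match, Gbp2 held 1 ISRE match, and Gbp5 held 1 ISRE and 2 GAS matches. Of all 32851 promoter windows of this length, 2.98% held an ISRE match and 7.02% a GAS match. Promoters on 1 chromosome were left out of the list counts that follow but kept among the 32851 windows. Of the interferon-stimulated list 11 of 16 genes were counted, and 6 of them held an ISRE match. Of a list of guanylate-binding and interferon-gamma-induced genes 6 of 8 were counted, and 5 held one. A GAS match was in 3 and 2 of the counted genes. The windows of Irf7, Cd274, Hspa1b and Gkn3 held neither motif. A match describes the sequence and is not evidence of binding.

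The 4 libraries held 69392755 to 104023002 UMIs, and the arterial cells held 6937580 UMIs in sham, 3000658 at day 1, 5404122 at day 3 and 7492652 at day 7. The median arterial cell had 6802 UMIs in sham and 4626, 5407 and 4999 at days 1, 3 and 7, against 1828 to 2875 for the other endothelial cells. The rule sets a part of this gap, since members had to hold UMIs of 3 arterial genes and the other cells none. Sham endothelial cells with 0 of the 6 arterial genes had a median of 2875 UMIs, and those with all 6 had 9967. Mitochondrial genes gave 1.79% to 2.62% of arterial UMIs. Pairs of libraries shared 33 to 88 cell barcodes, of which at most 1 belonged to an arterial cell in both. Scrublet, a doublet caller, marked 4, 32, 6 and 42 arterial cells in sham and at days 1, 3 and 7, which were kept. A small number of arterial cells were rich in choroid plexus or red-cell RNA: more than 1% of UMIs came from Ttr or from globin genes in 17, 27, 40 and 16 cells. These cells carried most of the summed Ttr at days 1 and 3, where its level of 27251 and 10914 CPM (UMIs of a gene scaled to a total of 1000000 per set of cells) became 1258 and 1077 CPM without them. Ttr at a lower level was widespread. A UMI of it was seen in 99.1%, 98.6%, 98.4% and 89.1% of arterial cells in sham and at days 1, 3 and 7. The median arterial cell was at 646, 1249, 1035 and 487 CPM of Ttr. Values without the cells above 1% are given beside the results that those cells moved most.

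The arterial label was checked on genes the rule did not use. The 19 genes of an arterial identity list summed to 9417 CPM in the sham arterial cells, 11407 at day 1, 13143 at day 3 and 10699 at day 7. In the other endothelial cells the same list summed to 2927, 2397, 3366 and 3560 CPM, and 12 or 13 of the 19 genes were at least 2-fold higher in the arterial cells of each library. Of 8 venous genes 5 were at least 2-fold lower in the arterial cells of each library, and the 7 capillary genes summed to 0.353 to 0.458 of their level in the other endothelial cells. The gap junction gene Gja4, the Notch target Hey1, the Notch ligand Jag1, the ephrin ligand Efnb2 and the vasoconstrictor gene Edn3 were all higher in the arterial cells of all 4 libraries. Their log2 ratios, taken after adding 10 CPM to both levels, were 3.05 to 3.64 for Gja4, 1.82 to 2.19 for Hey1 and 1.34 to 1.73 for Efnb2. The venous genes Slc38a5 and Nr2f2 and the capillary carbonic anhydrase gene Car4 were lower, by log2 ratios of -3.80 to -2.66, -2.15 to -1.36 and -4.56 to -3.02. The arterial and capillary lists thus accorded with the label in every library. The venous list was less clear. It summed to 0.502 of its other endothelial level in sham and 0.775, 0.375 and 0.735 at days 1, 3 and 7. Because the arterial cells were chosen by their arterial genes, their difference from other endothelial cells is given as a description.

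Across all tested genes, 138 of 3730 (3.70%) were at least 2-fold higher and 123 (3.30%) at least 2-fold lower in sham arterial cells than in sham other endothelial cells. At day 1 the shares of 3467 genes were 3.81% and 2.39%, at day 3 those of 3738 genes were 4.15% and 4.09%, and at day 7 those of 4037 genes were 3.77% and 3.02%. Of 18 matrix genes, 6 or 7 were at least 2-fold higher in the arterial cells of each library and 0 to 3 at least 2-fold lower, with list medians of -0.08 to 0.19. Elastin (Eln), the elastic protein of artery walls, was higher in arterial cells by log2 ratios of 3.39 to 3.81, the fibulin gene Fbln2 by 3.07 to 3.46 and the collagen gene Col18a1 by 3.04 to 3.56.

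The first comparison was the share of arterial cells among endothelial cells. They made up 15.1% of endothelial cells in sham (exact binomial interval 14.2% to 16.1%), 7.11% at day 1 (6.52% to 7.73%), 14.2% at day 3 (13.3% to 15.1%) and 13.2% at day 7 (12.5% to 13.9%). Day 1 stood below the other libraries, at 0.470 times the sham share (interval 0.423 to 0.521), while days 3 and 7 were at 0.938 and 0.869 times. Cells were deepest in sham, and a deeper cell can show more of the marker genes. With every cell thinned to 2000 UMIs and shallower cells left out, the shares were 10.3%, 6.21%, 11.3% and 12.1%. Day 1 stayed lowest, at 0.603 times sham. The ratios of days 3 and 7 moved from below 1 to above it, at 1.09 (0.963 to 1.24) and 1.17 (1.04 to 1.31). The day 3 interval spans 1, and both intervals cover counting error only. Many cells lay near the threshold of 3 arterial genes: 326, 236, 331 and 515 members in sham and at days 1, 3 and 7 held exactly 3 of the 6 arterial genes, and 366, 456, 442 and 706 endothelial cells held 2 and were left out. Members at the threshold had median depths of 4189 to 5929.5 UMIs, and the cells just outside it 3135.5 to 4823 UMIs.

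The day 1 value also depended on which arterial genes were counted. Gkn3, a secreted gastrokine used as a marker of brain arteries, summed to 1989 CPM in the sham members, 591 at day 1, 1713 at day 3 and 2117 at day 7, and 74.4% of day 1 members held a UMI of it against 89.2% to 90.6% in the other libraries. Vegfc, a lymphatic growth factor, was at 308, 155, 233 and 233 CPM, whereas Cytl1, a secreted cytokine-like protein, was at 149, 340, 343 and 212 CPM. The genes of the rule thus moved in unlike ways, and these values describe how the members were chosen. When arterial cells were instead called by 3 of 9 other arterial genes (Efnb2, Hey1, Jag1, Gja4, Gja5, Mgp, Clu, Stmn2 and Edn3) in cells thinned to 2000 UMIs, the shares were 17.9%, 17.2%, 29.1% and 22.6%, and the day 1 share was 0.960 times sham (interval 0.872 to 1.06). These 9 were the genes of the 19-gene identity list that were at least 2-fold higher in the members than in other endothelial cells in all 4 libraries, so this count is not independent of the rule. Without Mgp and Clu, which were higher than in sham in the other endothelial cells on all 3 days, they were 9.99%, 8.28%, 11.8% and 12.4%, and day 1 was 0.829 times sham (interval 0.720 to 0.955). Day 1 was the lowest library by each of these counts, and the size of the gap depended on the genes.

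**Figure D1:**
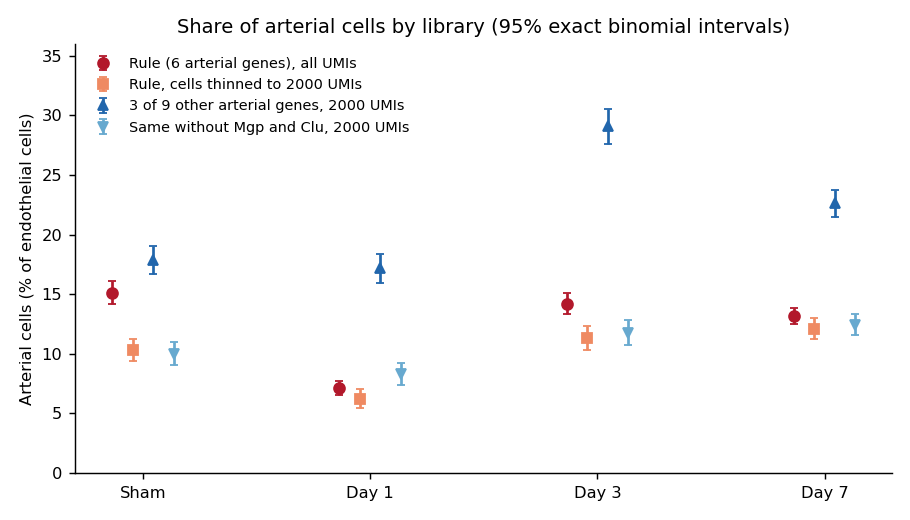
Share of arterial cells among endothelial cells (y axis, percent) in each library (x axis), with 95% exact binomial intervals; circles are the rule on all UMIs, squares the rule on cells thinned to 2000 UMIs, and triangles calls from other arterial genes on thinned cells. Day 1 is lowest in each series, from 7.11% against 15.1% in sham by the rule to 17.2% against 17.9% by 9 other genes.

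Expression in the arterial cells was then compared between each day and sham, on UMIs summed over the members of a library. A gene counts here as having risen or fallen when it changed at least 2-fold after 10 CPM was added, among genes at 50 CPM or more in either library, with the genes of the rule and mitochondrial genes left out. At day 1, 95 of 3617 genes rose (2.63%) and 125 fell (3.46%). At day 3, 62 of 3574 rose (1.73%) and 32 fell (0.895%), and at day 7, 60 of 3901 rose (1.54%) and 39 fell (1.00%). Day 1 thus held the most changes, but 60 rather than 95 genes rose there without the cells rich in Ttr or globin, 58 without Scrublet doublets and 43 with cells limited to 3000 genes. The median log2 ratio over all tested genes was -0.07 at day 1, 0.0032 at day 3 and 0.08 at day 7. Apart from the rises of day 7, most of these genes changed at least 2-fold in the same direction in the other endothelial cells too: 70 of 95 rises and 103 of 125 falls at day 1, 45 of 62 and 20 of 32 at day 3, and 28 of 60 and 33 of 39 at day 7. Each comparison with sham uses the same sham cells.

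Of the 17 tested genes of the arterial identity list, Mgp rose and Tgfb2 fell at day 1, Mgp and Clu rose at day 3, and none rose or fell at day 7. The shares over all tested genes were 2.63% and 3.46% at day 1, 1.73% and 0.895% at day 3 and 1.54% and 1.00% at day 7. Counts of 0 or 1 of 17 are near them, while the 2 rises of 17 at day 3 stand further above 1.73%. The list's median log2 ratio was -0.26 at day 1, -0.06 at day 3 and 0.22 at day 7. Matrix Gla protein (Mgp), an inhibitor of vessel calcification, was at 2829 CPM in sham, 5808 at day 1, 5917 at day 3 and 3398 at day 7. It was 2.05-fold higher at day 1 (interval 2.01 to 2.10) and 2.09-fold at day 3 (2.05 to 2.13), and back within 1.20-fold at day 7. Clusterin (Clu), a secreted chaperone, peaked later. It was at 536 CPM in sham and 802 at day 1, reached 1326 at day 3 and was at 455 at day 7. Transforming growth factor beta 2 (Tgfb2), a ligand that shapes artery walls, was at 331, 116, 234 and 422 CPM, a fall to 0.350-fold at day 1 only.

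Vwf and Igfbp4 were high at all 3 days after tMCAO. Von Willebrand factor (Vwf), the clotting and platelet-binding protein stored by endothelium, was at 297 CPM in sham, 902 at day 1, 770 at day 3 and 670 at day 7. It was 3.04-, 2.60- and 2.26-fold above sham in the arterial cells and 3.00-, 4.21- and 2.28-fold in the other endothelial cells. Igfbp4, a secreted binding protein of insulin-like growth factors, was at 143, 665, 536 and 231 CPM, so it rose at days 1 and 3 and was 1.62-fold higher at day 7.

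**Figure D2:**
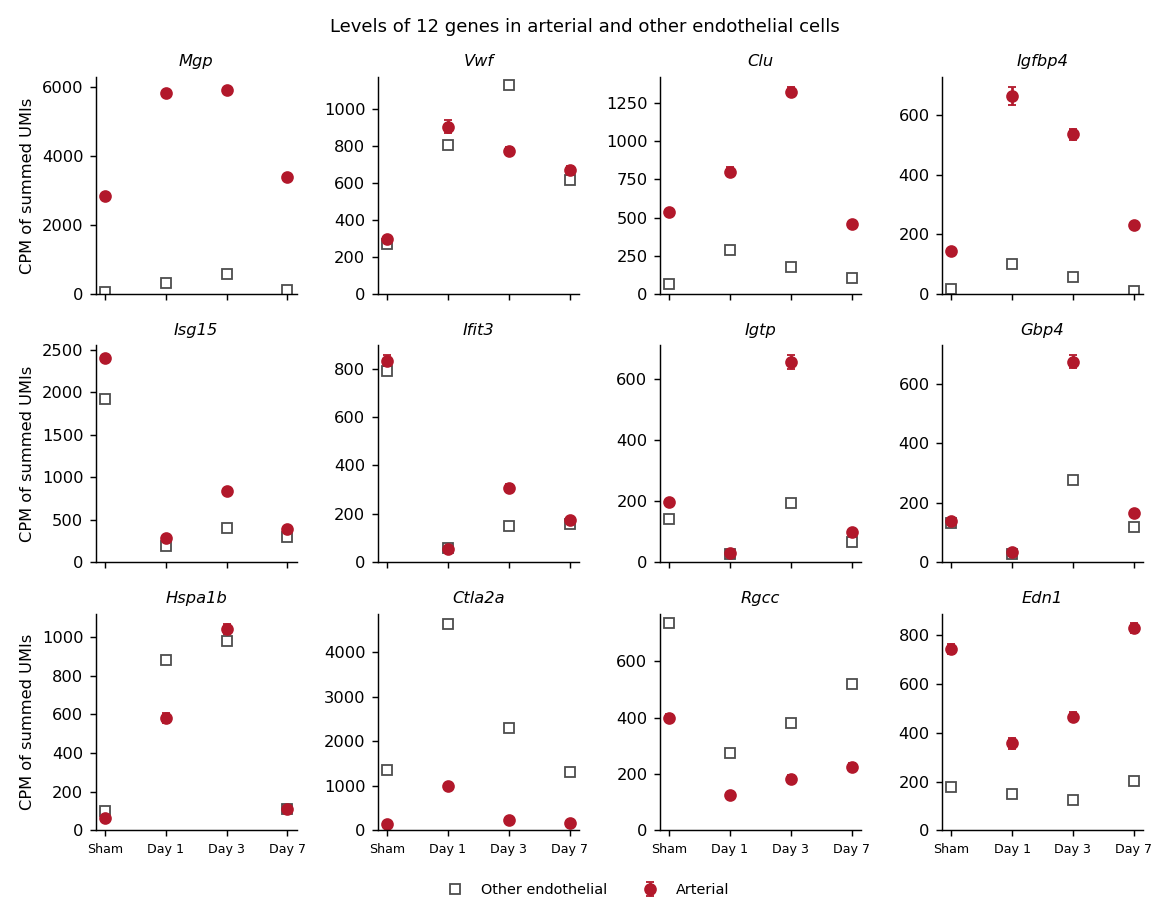
Levels of 12 genes (y axis, CPM of summed UMIs, one scale per gene) in each library (x axis); filled circles with 95% Poisson intervals are arterial cells and open squares are other endothelial cells. Mgp, Vwf and Igfbp4 lie above sham in the arterial cells of all 3 tMCAO libraries, Isg15 and Ifit3 lie below sham in all 3, and Igtp and Gbp4 peak at day 3.

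The interferon-stimulated genes, the antiviral program of type I interferon, were below sham after tMCAO, most of all at day 1 and least at day 3. All 16 genes of this list were tested: 16 fell at day 1, 6 at day 3 and 12 at day 7, beside 3.46%, 0.895% and 1.00% of all tested genes. In the other direction 1 rose, Iigp1 at day 3, where 1.73% of all tested genes rose. Their summed level was 9437 CPM in sham, 1427 at day 1, 5190 at day 3 and 2731 at day 7, and the median log2 ratio was -2.34, -0.72 and -1.43. The sham library was thus the highest of the 4 and day 1 the lowest. Isg15, a ubiquitin-like antiviral protein, was at 2402 CPM in sham, 281 at day 1, 835 at day 3 and 385 at day 7. Its day 1 level was 0.117 of sham (interval 0.109 to 0.125). Irf7, the transcription factor that amplifies interferon production, was at 1255, 105, 479 and 278 CPM. Ifit3, an antiviral protein, was at 834, 55.3, 306 and 172 CPM, and because its copy Ifit3b is nearly identical, reads may be split between them.

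The list was also below sham outside the arterial cells, and less so in cells with no endothelial gene. In the other endothelial cells the list summed to 8115 CPM in sham, 1274 at day 1, 2887 at day 3 and 2438 at day 7, and in cells with no endothelial gene to 965, 466, 721 and 620 CPM. The arterial sum was 0.151, 0.550 and 0.289 of sham at days 1, 3 and 7, and that of the other endothelial cells 0.157, 0.356 and 0.300, so the day 3 level was nearer to sham in the arterial cells. Thinned to 2000 UMIs, the median arterial cell held 18 UMIs of the list in sham, 2 at day 1, 10 at day 3 and 5 at day 7. The interquartile range ran from 13 to 23.5 UMIs in sham and from 1 to 4 at day 1, so the lower level held across most cells.

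A group of interferon-gamma-induced genes took a different course and was high at day 3. This list of 8 genes was put together after their values had been seen, so its counts are descriptions. At day 3 all 8 were tested, of which 6 rose and none fell, beside 1.73% of all tested genes. Of 7 tested at days 1 and 7, 6 and 2 fell, beside 3.46% and 1.00% of all. Its summed level was 1263 CPM in sham, 283 at day 1, 3444 at day 3 and 835 at day 7, and at day 3 it was 2.73 times sham, against 1.16 times in the other endothelial cells. Gbp4, a guanylate-binding protein of cell-autonomous defence, was at 137 CPM in sham, 35.3 at day 1, 674 at day 3 and 165 at day 7. Its day 3 level was 4.92-fold above sham (interval 4.58 to 5.29) in the arterial cells and 2.12-fold in the other endothelial cells.

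The other members were likewise highest at day 3 and lowest at day 1. Igtp, an immunity-related GTPase, was at 197, 29.3, 656 and 99.8 CPM, which was 3.33-fold above sham at day 3 in the arterial cells and 1.37-fold in the others. Gbp2 was at 129, 40.3, 445 and 99.8 CPM and Gbp5 at 137, 40.3, 411 and 138 CPM. Cd274, the immune checkpoint ligand PD-L1, was at 32.4, 12.7, 143 and 26.7 CPM, a 4.41-fold difference at day 3 in the arterial cells and 1.71-fold in the others. Wars, the tryptophan transfer RNA synthetase that interferon-gamma induces, was 3.79-fold higher at day 3, at 229 CPM against 60.4 in sham. Gbp3 and Irgm1, at 466 and 419 CPM at day 3, were 1.46- and 1.67-fold above sham and did not reach 2-fold. Iigp1, another immunity-related GTPase, was at 182, 28.3, 422 and 97.6 CPM. Iigp1 is not in this list of 8 but in the interferon-stimulated list.

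Cell by cell the day 3 level was broad. Thinned to 2000 UMIs, the median arterial cell held 2 UMIs of the 8 genes in sham, 0 at day 1, 6 at day 3 and 1 at day 7, and the interquartile range of day 3 cells ran from 3 to 11. The median of the other endothelial cells at day 3 was 2, with an interquartile range of 1 to 4. A UMI of Gbp4 was seen in 62.6% of 775 thinned arterial cells at day 3 (86.8% before thinning) and in 21.6% of 791 in sham, against 33.2% and 20.1% of the other endothelial cells thinned in the same way. In cells with no endothelial gene Gbp4 was at 0.228 to 2.74 CPM. Leukocyte marker genes summed to 6.05, 9.0, 121 and 32.8 CPM in the arterial cells and were thus also highest at day 3. In the other endothelial cells they summed to 604 CPM at day 3. The part of leukocyte RNA in the arterial values was not tested.

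**Figure D3:**
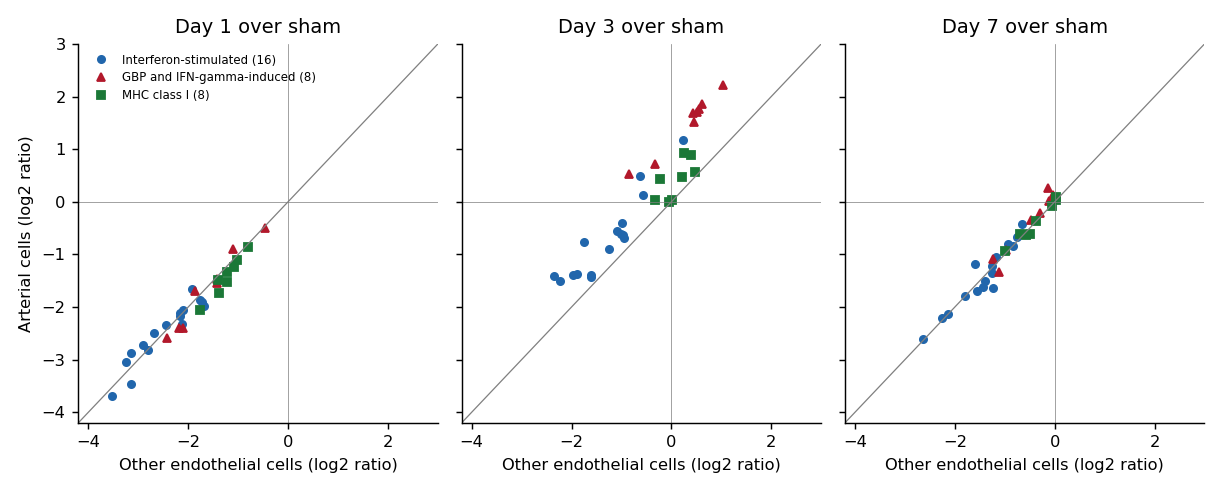
Log2 ratio of each tMCAO library to sham in arterial cells (y axis) against other endothelial cells (x axis), 1 point per gene, with the line of equality; circles are 16 interferon-stimulated genes, triangles 8 guanylate-binding and interferon-gamma-induced genes and squares 8 MHC class I genes. At day 1 nearly all points are below 0 on both axes, and at day 3 the triangles lie above the line, where the list summed to 2.73 times sham in arterial cells and 1.16 times in the others.

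**Figure D4:**
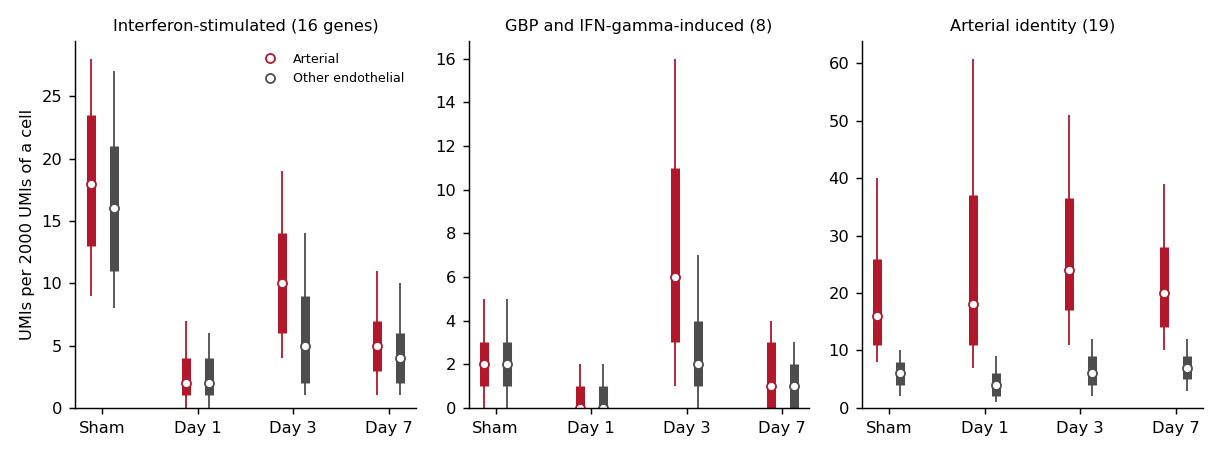
UMIs of 3 gene lists per cell (y axis) in each library (x axis) after every cell was thinned to 2000 UMIs; circles are medians, thick bars the interquartile range and thin lines the 10th to 90th percentile, red for arterial and grey for other endothelial cells. The guanylate-binding list has a median of 6 in day 3 arterial cells and 0 to 2 in every other group.

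Antigen presentation genes of MHC class I were low at day 1 and near sham later. Of the 8, 7 fell at day 1, beside 3.46% of all tested genes, and none rose or fell at days 3 and 7, which is near the shares over all genes of 0.895% to 1.73%. The list had median log2 ratios of -1.41, 0.44 and -0.49. H2-D1, a class I heavy chain, was at 3324 CPM in sham, 1406 at day 1, 3401 at day 3 and 2567 at day 7. B2m, the shared light chain, did not reach 2-fold, at 1619, 886, 2234 and 1726 CPM. Psmb8, an immunoproteasome subunit, was at 625, 180, 843 and 320 CPM. In the other endothelial cells the summed list was at 0.467, 1.09 and 0.841 of sham at days 1, 3 and 7.

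Some stress genes rose early. Of 9 tested heat shock genes, Hspa1b and Hspa1a rose at days 1 and 3, where 2.63% and 1.73% of all tested genes rose. Hspa1b was at 63.6 CPM in sham, 581 at day 1, 1041 at day 3 and 108 at day 7, and Hspa1a at 374, 810, 1592 and 504 CPM. Both encode inducible HSP70 chaperones with nearly identical coding sequence, so reads may be split between them. Hspa1b was 9.13- and 16.4-fold above sham at days 1 and 3 in the arterial cells and 8.96- and 9.95-fold in the others. The other 7 tested chaperone genes, among them Hsp90aa1 at 267, 355, 355 and 314 CPM, stayed under 2-fold. The summed heat shock list was at 0.923, 1.44 and 0.852 of sham at days 1, 3 and 7 in the arterial cells. In the other endothelial cells it was at 1.41, 1.62 and 0.877. The day 1 rise in the arterial cells was thus of Hspa1b and Hspa1a and not of the list's sum. The metallothionein genes Mt1 and Mt2, whose proteins bind zinc and copper, rose at day 1 only, Mt1 from 519 to 1086 CPM and Mt2 from 53.5 to 162 CPM. In cells thinned to 2000 UMIs their median of 0 and 90th percentile of 3 UMIs were the same in sham and at day 1, while the share of arterial cells with a UMI of the pair was 29.3% and 44.0%, the mean was 0.965 and 1.79 UMIs, and the highest cell held 18 and 54. The median log2 ratio of the pair at day 1 was 1.24, but 0.35 with cells limited to 3000 genes and 0.78 without doublets, under 2-fold in both. The pair went from 1353 to 3272 CPM in cells with no endothelial gene, and the part of such RNA in the rise was not tested.

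Genes at less than 0.5 times their level in cells with no endothelial gene were left out of the ranking of rises, among them Ttr, whose day 1 log2 ratio was 5.22. Among the rest the gene with the largest log2 ratio at day 1 was S100a6, and others of the 10 largest follow. S100a6, a calcium-binding protein, was at 91.7 CPM in sham, 952 at day 1, 207 at day 3 and 137 at day 7. It was 10.4-fold above sham at day 1 (interval 9.53 to 11.3), and 41.4-fold in the other endothelial cells, where its sham level was 23.4 CPM. Ctla2a, a cathepsin inhibitor gene, was at 153, 998, 232 and 174 CPM in the arterial cells and reached 4640 CPM in the other endothelial cells at day 1. Lrg1, a secreted protein linked to angiogenesis and the acute phase, was at 5.48, 85.3, 145 and 16.4 CPM. Tmsb10, which binds actin monomers, was at 306, 1206, 481 and 294 CPM, and Igfbp3, a second binding protein of insulin-like growth factors, at 191, 681, 198 and 417 CPM. Timp1, an inhibitor of matrix proteases, rose from 2.59 to 51.3 CPM at day 1.

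With the same genes left out, among them Ttr at 3.90 and Enpp2 at 2.39, the 10 day 3 rises with the largest log2 ratios included Hspa1b, Hspa1a, Gbp4, Cd274 and Igfbp4, given above, and Lcn2 and Ackr1, whose UMIs came mainly from few cells. Lcn2, an iron-scavenging acute phase protein, was at 8.94 CPM in sham, 40.3 at day 1, 378 at day 3 and 51.5 at day 7. Of the 865 day 3 members 127 held a UMI of Lcn2, and the 10 highest cells carried 78.6% of its UMIs. Ackr1, the chemokine-transporting receptor of venules, was at 1.73, 28.0, 138 and 13.5 CPM, and at day 3 it was at 628 CPM in the members with Lcn2 and 4.48 CPM in those without. The cells with Lcn2 were deeper, with a median of 7680 against 5118 UMIs. In the other endothelial cells Lcn2 reached 3324 CPM and Ackr1 1137 CPM at day 3. Whether these droplets held an arterial and a venous cell was not tested. The 8 venous genes together were above sham on all 3 days, at 2.38, 2.55 and 2.31 times, with 1 of 3 tested genes risen at day 1, 3 of 4 at day 3 and 2 of 3 at day 7, beside 2.63%, 1.73% and 1.54% of all tested genes. In thinned cells a UMI of the list was seen in 50.8% of arterial cells in sham and in 78.8%, 72.9% and 68.7% at days 1, 3 and 7. Among the other endothelial cells the shares were 62.7%, 74.3%, 77.7% and 67.3%.

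Of 10 tested genes of vessel tone and flow at day 1, Edn1 alone fell, beside 3.46% of all tested genes, and of 9 tested at days 3 and 7 none rose or fell. Counts this small were not told apart from the shares over all genes. Endothelin 1 (Edn1), a potent vasoconstrictor peptide, was at 744 CPM in sham, 356 at day 1, 465 at day 3 and 830 at day 7, and its day 1 ratio of 0.479 compared with 0.850 in the other endothelial cells. Nos3, which makes the dilator nitric oxide, was at 182, 230, 203 and 270 CPM. The flow-induced transcription factor genes Klf2 and Klf4 were at 6509, 4348, 4016 and 5398 CPM and at 1190, 669, 732 and 1415 CPM. Day 1 and day 3 were the lower libraries for both, within 2-fold of sham.

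None of 11 tested barrier transport and tight junction genes rose or fell on any day, which is near the shares of 0.895% to 3.46% over all tested genes. Their median log2 ratios were -0.02, -0.03 and 0.43, and their summed level was 0.974, 1.04 and 1.39 times sham. Cldn5, the main tight junction protein of brain endothelium and a gene of the rule, was at 6004, 4765, 5012 and 5338 CPM, and the junction genes Ocln and Tjp1 were at 158, 173, 209 and 265 CPM and at 377, 421, 335 and 649 CPM. Of 7 tested capillary genes, 2 fell and 1 rose at day 1, beside 3.46% and 2.63% of all tested genes, with a median log2 ratio of -0.13. Of 6 tested, 1 fell at day 3 and 1 rose at day 7, beside 0.895% and 1.54% of all. At day 7 the list summed to 1.35 times sham. Mfsd2a, a lipid transporter that limits transcytosis, fell at day 1, at 287, 132, 176 and 190 CPM, and so did Rgcc, a cell cycle regulator, at 398, 125, 184 and 227 CPM. The lactate transporter Slc16a1 was higher, at 163 CPM at day 1 against 54.9 in sham. The chemokine gene Cxcl12 was at 1246, 418, 604 and 1191 CPM, which was 0.335 of sham at day 1 and 0.484 at day 3.

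Leukocyte adhesion genes were highest at day 3. Of 4 tested, Vcam1 and Icam1, which bind leukocyte integrins, rose at day 3, beside 1.73% of all tested genes, and Icam1 was at least 2-fold higher at day 7 as well. Vcam1 was at 413 CPM in sham, 365 at day 1, 880 at day 3 and 452 at day 7, and Icam1 at 27.7, 55.7, 87.5 and 65.5 CPM. Of 9 tested genes of the NF-kB and STAT3 response, Lcn2, Ptgs2 and Osmr rose at day 3, beside the same 1.73% of all tested genes. At day 1, of 7 tested, Cebpd rose and Irf1 fell, and at day 7, of 8 tested, Lcn2 rose, beside shares over all genes of 2.63%, 3.46% and 1.54%. Ptgs2, the inducible cyclooxygenase, was at 29.7, 42.0, 111 and 45.2 CPM, and Osmr, the oncostatin M receptor, at 49.0, 85.3, 128 and 87.2 CPM. Irf1, a transcription factor that interferon-gamma induces, was lowest at day 1 and highest at day 3, at 148, 68.3, 296 and 117 CPM. At day 3 the summed leukocyte adhesion list was 1.65 times sham in the arterial cells and 2.10 times in the other endothelial cells. The NF-kB and STAT3 list was 1.24 times sham in the arterial cells then and 2.61 times in the others.

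Of 13 or 14 tested matrix genes, Sparc, a collagen-binding matrix protein, fell at day 7 alone, at 1372, 1592, 773 and 602 CPM. Beside it 1.00% of all tested genes fell then. Of 12 tested TGF-beta and BMP genes, Ctgf rose at day 1, where 2.63% of all tested genes rose. Bmpr2, Ctgf and Smad6 rose at day 7, where 1.54% of all rose. Of 11 tested at day 3 Cyr61 fell, beside 0.895% of all. Smad6, an inhibitor of BMP signalling, was at 119, 96.0, 157 and 275 CPM, and Bmpr2, a BMP receptor, at 279, 325, 318 and 576 CPM. Of 5 tested angiogenic genes at day 1, Plaur rose, beside 2.63% of all tested genes. Of 3 and 4 tested at days 3 and 7 none did, beside 1.73% and 1.54% of all. No gene of the proliferation list reached 50 CPM in any comparison, and its summed level was 1.78, 1.21 and 1.14 times sham. The integrated stress response had 1 gene above 50 CPM, Atf4, which did not change 2-fold.

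To describe how the arterial cells varied among themselves, they were divided by a UMI of Cytl1 or Fbln5, 2 genes of the rule, into 324, 256, 440 and 532 cells with such a UMI in sham and at days 1, 3 and 7, and 525, 251, 425 and 738 without. A cell without such a UMI had to hold 3 of Gkn3, Bmx, Sema3g and Vegfc to be a member, so the rule itself sets a part of the contrast, which is given as a description. The division was chosen after values had been seen and depends in part on depth, though the cells with a UMI were the shallower, with medians of 4122.5 to 6298.5 UMIs against 5096 to 6954. The share with a UMI was 38.2% in sham, 50.5% at day 1, 50.9% at day 3 and 41.9% at day 7, and 27.9%, 38.1%, 37.4% and 29.9% in thinned cells. Of 4137 genes tested, 32 (0.774%) were at least 2-fold higher and 22 (0.532%) at least 2-fold lower in the cells with a UMI in all 4 libraries.

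The higher genes included those of elastic and large-vessel wall. Biglycan (Bgn), a matrix proteoglycan, was at 279.8 CPM in sham cells with a UMI of Cytl1 or Fbln5 and 9.98 CPM in those without. Eln was at 559 against 65.5 CPM, Mgp at 6442 against 622 CPM and Vwf at 550.4 against 141 CPM. Clu, Igfbp4, Jag1, the prostacyclin synthase gene Ptgis and the angiotensin-converting enzyme gene Ace were also higher in all 4 libraries. The lower genes included Mfsd2a at 74.1 against 417 CPM, Cxcl12 at 399 against 1764 CPM, and Slco1c1, a thyroid hormone transporter of the barrier, at 496 against 1098 CPM. The basigin gene Bsg and endomucin (Emcn), a sialomucin of capillaries and veins, were lower in the cells with a UMI as well.

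**Figure D5:**
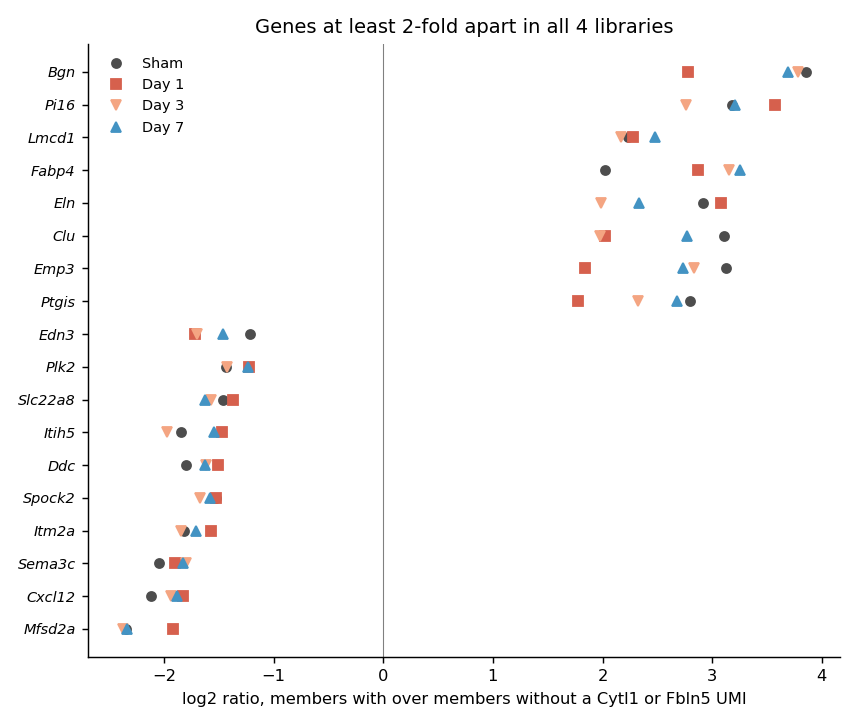
Log2 ratio of arterial cells with a UMI of Cytl1 or Fbln5 to those without (x axis) for the 8 highest and 10 lowest of the genes at least 2-fold apart in all 4 libraries (y axis); each symbol is 1 library. Bgn, Pi16, Eln and Clu lie to the right and Mfsd2a and Cxcl12 to the left in every library.

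The log2 ratios of Mgp and Igfbp4 over sham were larger in the cells without a UMI of Cytl1 or Fbln5, where the sham level was low. The Mgp log2 ratio over sham was 1.58, 2.27 and 1.10 at days 1, 3 and 7 in those cells and 0.62, 0.43 and 0.02 in the cells with a UMI. For Igfbp4 the values were 3.19, 3.28 and 1.27 against 1.64, 1.17 and 0.50. The Isg15 log2 ratio over sham was -2.84, -1.44 and -2.52 in the cells without a UMI and -3.31, -1.53 and -2.77 in those with one. Gbp4 at day 3 was at 2.05 and 2.26. These differences between the 2 sets of cells were not tested, since each library gives 1 value per set. Cytl1 itself differed between libraries, at 149, 340, 343 and 212 CPM. The share of cells with a UMI differed too, at 38.2%, 50.5%, 50.9% and 41.9%. The 2 sets are thus a different selection in each library, and the values are descriptions.

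RNA of other cell types was present in the arterial cells and uneven between libraries. Choroid plexus genes summed to 798 CPM in sham, 28575 at day 1, 11386 at day 3 and 1513 at day 7. All 4 of them rose at day 1, beside 2.63% of all tested genes. The few cells rich in Ttr carried most of the choroid plexus sum at days 1 and 3. Smooth muscle genes summed to 243 CPM in sham, 298 at day 1, 472 at day 3 and 313 at day 7, against 3768 to 15563 CPM in cells with no endothelial gene. Fibroblast genes summed to 16.4, 128, 27.8 and 67.5 CPM and microglia genes to 36.6, 75.3, 78.1 and 57.8 CPM. Astrocyte genes summed to 57.1, 201, 68.3 and 94.9 CPM and neuron genes to 60.8, 217, 30.9 and 43.2 CPM. Oligodendrocyte genes summed to 144 to 227 CPM and pericyte genes to 143 to 393 CPM. Day 1 was highest for 5 of these lists. Of 4 tested smooth muscle genes, Acta2 and Tagln rose at day 3, to 125 and 83.5 CPM from 29.7 and 23.5, beside 1.73% of all tested genes. The part of these cell types in the arterial results was not tested. In cells with no endothelial gene Mgp was at 278 to 661 CPM and Clu at 351 to 1129 CPM; the part of free RNA in their arterial values was not tested. The largest falls at day 1 were of globin genes, with Hbb-bs at 5239, 8.33, 2561 and 1056 CPM, and 14, 0, 15 and 10 arterial cells were rich in globin. Without the cells rich in Ttr or globin, the globin genes together went from 7682 to 133 CPM in sham, from 3740 to 95.5 at day 3 and from 1382 to 26.8 at day 7, and the day 1 log2 ratio of Hbb-bs was -2.44 instead of -8.16.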

How the data were processed

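The data were 3′ single-cell RNA counts of 4 mouse brain libraries, made with the 10x Genomics system. The authors deposited, for each library, a matrix of whole-number UMI counts per gene and cell barcode. The file header names Cell Ranger 4.0.0, whereas the submitters' processing notes name Cell Ranger 3.0.1, Seurat 4.1.2 and the build GRCh38, although the gene identifiers are mouse. The aligner settings, intron use and any removal of free RNA are not given in the sources used here. Near-identical genes (Ifit3 and Ifit3b, Hspa1a and Hspa1b) may share reads.

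Cells and members were selected by the stated rule. The members, gene lists and comparisons were chosen with earlier results of these data known, and the guanylate-binding list and the division by Cytl1 or Fbln5 were added after values were seen. UMIs were summed over members and scaled to CPM, with exact Poisson intervals; ratios have exact conditional intervals, shares Clopper-Pearson intervals and ratios of shares normal intervals on the log scale, all at 95%. Log2 ratios used 10 CPM added to each level. With 1 library per group, no test was run. Named genes were those of the lists plus, per day, the 10 largest rises and 10 largest falls of at least 2-fold among genes at 50 CPM or more, leaving out genes whose highest level was under 0.5 times that in cells with no endothelial gene. Thinning drew 2000 UMIs per cell without replacement. Doublets were called by Scrublet in scanpy and kept. Depth per library and cell is given in the text. Promoters and motifs came from RefSeq's GRCm38.p6 table. Scripts were tested on simulated data. Python 3.11.15, numpy 2.4.6, pandas 2.3.3, scipy 1.17.1, scanpy 1.11.5 and matplotlib 3.10.9 were used. Results for some genes are not reported here.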

Additional observations from a re-analysis of the deposited data

Results flagged for a closer look

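Some cells outside the cell filter met the gene conditions for arterial cells and entered no comparison: 18 in sham, 6 at day 1, 6 at day 3 and 19 at day 7. Of these, 7, 0, 3 and 8 were over the limit of 6000 genes and 11, 6, 3 and 11 over the limit of 10% mitochondrial UMIs. They were singled out because they carry an arterial signal in data that the comparisons did not use.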

How the results depend on the processing

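No paired analysis was possible because each group was 1 library. The fall of the interferon-stimulated list was present under each alternative run (median log2 ratio -2.59 to -1.73 at day 1, -0.81 to -0.61 at day 3, -1.52 to -1.12 at day 7), as were the day 3 rise of the guanylate-binding list (1.30 to 2.01) and the day 1 fall of the MHC class I list (-1.49 to -1.16). The share was less stable. For days 1, 3 and 7 over sham it was 0.618, 1.07 and 0.969 with cells limited to 3000 genes, 0.603, 1.09 and 1.17 with cells thinned to 2000 UMIs, 0.574, 1.05 and 1.02 with 1000 UMIs, 0.960, 1.63 and 1.27 by 9 other arterial genes, and 0.829, 1.18 and 1.25 by these without Mgp and Clu. The day 7 ratio thus turned from below 1 (interval 0.802 to 0.942) to above it under 4 of these. At 1000 UMIs its interval of 0.873 to 1.19 spanned 1. All these intervals cover counting error only, and with 1 library per group they cannot show a difference between days. Day 3, at 0.859 to 1.02, was not resolved from sham, nor was it under the gene limit or at 2000 or 1000 UMIs, but it was below sham with a mitochondrial limit of 5%, at 0.860 (0.787 to 0.940), and with 0 UMIs of the excluding genes, at 0.891 (0.812 to 0.979). At least 4 of the 6 arterial genes gave 0.407 at day 1. The cause of these moves was not tested.

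Counts of genes past 2-fold moved with the CPM added, the floor and the cells kept. With 50 CPM added 56, 35 and 11 genes rose and 69, 15 and 24 fell at days 1, 3 and 7, and with 1 CPM added 104 rose at day 7. Among genes of at least 200 CPM 34, 27 and 23 rose and 58, 19 and 24 fell, and among genes of at least 20 CPM 209 rose at day 1 and 95 at day 3. At day 1, 43 rose with cells limited to 3000 genes, 58 without doublets, 58 with cells of equal weight and 60 without cells rich in Ttr or globin; at day 7, 36 rose with the limit and 32 with equal weight. Against endothelial cells with up to 2 arterial genes, the arterial identity list was at 2.90, 4.08, 3.36 and 2.65 times in sham and at days 1, 3 and 7, the capillary list at 0.396, 0.502, 0.531 and 0.466, and the venous list at 0.841 at day 1. The choroid plexus list turned to -0.024 at day 1 under the gene limit and to -0.061 at day 3 without the rich cells, and Hbb-bs to 0.89 at day 3 in members with a UMI of Cytl1 or Fbln5. Setting the median ratio to 1 shifted log2 values by -0.05 to 0.01. Of the log2 ratios of single named genes 978 were within the counting error of the value given and 389 moved. One library per group and 507 arterial cells at day 1 limit what can be resolved.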

Other observations

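Day 7 had its own set of risen genes in the arterial cells, largely of regulators. The transferrin receptor gene Tfrc, which brings iron into brain endothelium, was at 63.3 CPM in sham, 72.0 at day 1, 51.3 at day 3 and 195 at day 7. Sik1, a salt-inducible kinase, was at 77.7, 74.7, 41.1 and 214 CPM, Dock9, an activator of the GTPase Cdc42, at 104, 158, 120 and 277 CPM, and Rictor, a subunit of the mTORC2 kinase complex, at 47.0, 53.0, 64.4 and 132 CPM. Ddit4, a stress-induced inhibitor of mTOR signalling, was at 69.8, 64.3, 58.3 and 186 CPM. Day 7 stood above the other libraries for these 5 genes, and in the other endothelial cells they were 2.03- to 2.91-fold above sham. Rictor was at a log2 ratio of 0.95 with cells limited to 3000 genes against 1.32 without the limit. Neat1, a nuclear long noncoding RNA, was at 107, 128, 132 and 291 CPM.

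A pair of abundant noncoding transcripts was lowest at day 1. Malat1, another nuclear RNA, was at 29230, 10472, 12730 and 26053 CPM in the arterial cells and at 25120, 11540, 14988 and 26731 CPM in the other endothelial cells. Gm42418, which overlaps ribosomal RNA sequence, was at 7797, 829, 1411 and 3884 CPM in the arterial cells and 12127, 1236, 2329 and 5625 CPM in the other endothelial cells. At day 7 Malat1 was near its sham level in both classes, and Gm42418 was at 0.498 of sham in the arterial cells. Nes, an intermediate filament gene of growing cells, was at 236, 70.0, 71.4 and 248 CPM. Of 13 tested immediate-early genes, Jun fell at day 1, Ier3 rose at day 3 and Fosb rose at day 7, beside 3.46%, 1.73% and 1.54% of all tested genes, with Jun at 4069, 1750, 2457 and 4667 CPM. Pfkfb3, a driver of endothelial glycolysis, was at 9.66, 9.66, 59.2 and 31.8 CPM.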
